A study of Homo sapiens with 14 samples.

Results

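The replication histone genes of the short arm of chromosome 6 were examined for KLF4 binding in BEAS-2B cells, an established human bronchial epithelial cell line. The set was chosen by name and position, as every protein-coding gene of GENCODE 44 between 26 and 28 Mb of chromosome 6 (GRCh38/hg38) whose symbol starts with H1-, H2AC, H2BC, H3C or H4C. This rule found 53 of 20033 protein-coding genes, of which 6 encode H1, 11 H2A, 14 H2B, 10 H3 and 12 H4. KLF4 ChIP-seq was carried out in WT control cells, WT cells with 1 µM As3+ for 6 h, Nrf2 KO control cells and Nrf2 KO cells with the same As3+ treatment. As3+ is trivalent arsenic, and the knockout was made with CRISPR-Cas9 and guide RNAs to exon 2 of the Nrf2 gene, and colonies were picked by the absence of Nrf2 protein on western blots. Each of the 4 conditions has 1 KLF4 library and 1 list of peaks, so a difference between conditions has no replicate check and no test was made. A gene was counted when the summit of a peak lay within 2 kb of its transcription start site (TSS), which is the start of the Ensembl canonical transcript.

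Replication histone genes supply the core histones H2A, H2B, H3 and H4 and the linker histone H1 that package newly made DNA, and they are transcribed mainly in S phase. They lie in clusters, have no introns as a rule, and their mRNA ends in a short stem-loop in place of a poly(A) tail. The stem-loop is bound by SLBP, and transcription depends on NPAT, which gathers at histone locus bodies. KLF4 is a zinc-finger transcription factor of the Krüppel-like family that binds CACCC-type sites and is best known for its part in pluripotency and epithelial differentiation.

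All 53 genes had 1 exon in their canonical transcript. They fell into 3 subclusters of chromosome 6, with 32 genes over 268.607 kb from H1-1 to H4C8, 5 genes over 21.666 kb from H2BC11 to H2AC12, and 16 genes over 86.413 kb from H2BC13 to H2BC17. The H2A and H2B genes often stood head to head, and 18 of the 53 were in such divergent pairs with starts at most 500 bp apart. Just outside the region, H2AC1 and H2BC1 had no peak in any of the 4 lists.

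The end of the mRNA shows what these genes share. The core CTTTTNAG of the stem-loop was found on either strand within 150 bp of the gene end in 50 of the 53 genes, against 4.07% of all protein-coding genes. The other 3, H3C6, H2BC10 and H4C13, held a variant of it. The 16-base stem-loops of 1 gene of each histone type and of those 3 genes are printed 5′ to 3′ on the gene's strand, with the core or its variant in capitals and lower-case stem arms that pair with each other.
H1-4, chr6:26157095-26157110, plus strand: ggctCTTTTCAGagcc
H2AC7, chr6:26198789-26198804, minus strand: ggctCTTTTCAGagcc
H2BC7, chr6:26199968-26199983, plus strand: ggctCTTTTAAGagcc
H3C11, chr6:27871850-27871865, minus strand: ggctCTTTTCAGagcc
H4C1, chr6:26022030-26022045, plus strand: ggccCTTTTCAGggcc
H3C6, chr6:26225596-26225611, plus strand: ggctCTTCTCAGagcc
H2BC10, chr6:26273392-26273407, plus strand: ggctCTTCTAAGagcc
H4C13, chr6:27873153-27873168, minus strand: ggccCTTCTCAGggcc
The first form was carried by 29 genes, namely 4 of H1, 9 of H2A, 8 of H2B and 8 of H3. The arms ggcc and ggcc, seen above in H4C1 and H4C13, were the arms of all 12 H4 genes and of no gene of another type.

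The promoters, taken as 250 bases before to 50 after the TSS, also differed by histone type in the words they held, each searched on both strands. The octamer ATTTGCAT, the site of the factor OCT1 (POU2F1), was found in 9 of 11 H2A and 11 of 14 H2B promoters and in none of the others, against 1.62% of all promoters. Promoters of a divergent pair overlap, so these 20 genes shared 13 octamers. AAACACA, part of the H1 box, was found in all 6 H1 promoters and in no other member, against 4.19% of all promoters. GCGGAC, the core of the site of the H4 gene factor HINFP, was found in 7 of 12 H4 promoters and in no other member, against 17.3% of all promoters and 2.01% of those with GC content between the members' quartiles. Of the promoters in the same GC range, 4.61% held the octamer, against 37.7% of the 53 members. The H1 box word was held by 10.2% of them, close to the 11.3% of the members. It thus set the H1 genes apart within the set, but the set's share of it was not unusual for its GC content. In H1-1 its only match lay on the strand opposite the gene. An example of each word is printed on the strand where the word reads as given, with the word in capitals.
Octamer between H2AC7 and H2BC7, chr6:26199394-26199423, plus strand: agaatcacctaATTTGCATaccacagggca
H1 box of H1-4, chr6:26156201-26156229, plus strand: tgaggtgtaacAAACACAactcgggatcc
H1 box of H1-5, chr6:27867688-27867716, minus strand: tgaggactaacAAACACAatttgggagtc
HINFP core of H4C11, chr6:27824034-27824063, minus strand: atacgacagttgGCGGACcgaactgagaac
HINFP core of H4C12, chr6:27831589-27831618, plus strand: atacgacagttgGCGGACcgaactgagaac

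General promoter words were common as well. CCAAT, the site of NF-Y, was present in 46 of the 53 promoters against 36.1% of all, and TATAAA, the site of TBP, in 35 against 9.71% of all. Of the promoters with GC content between the members' quartiles, 43.8% held CCAAT and 29.2% held TATAAA. Words rich in G and C were rare beside all promoters. The KLF core CCACNCCC was found in 2 of the 53 promoters, those of H3C4 and H4C3, against 20.2% of all promoters. The GC box CCCCGCCCC was found in 1 promoter against 24.5%, and CGCGCG in 1 against 24%. In promoters with GC content between the members' quartiles these words were rarer still, at 0.297% and 0.743%, while the KLF core was found in 7.58%. The AP-1 word TGACTCA was not found in any member promoter and was present in 3.57% of all and in 7.13% of those of like GC content. A match is a description of the letters in this window and not a site of binding.

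**Figure D1:**
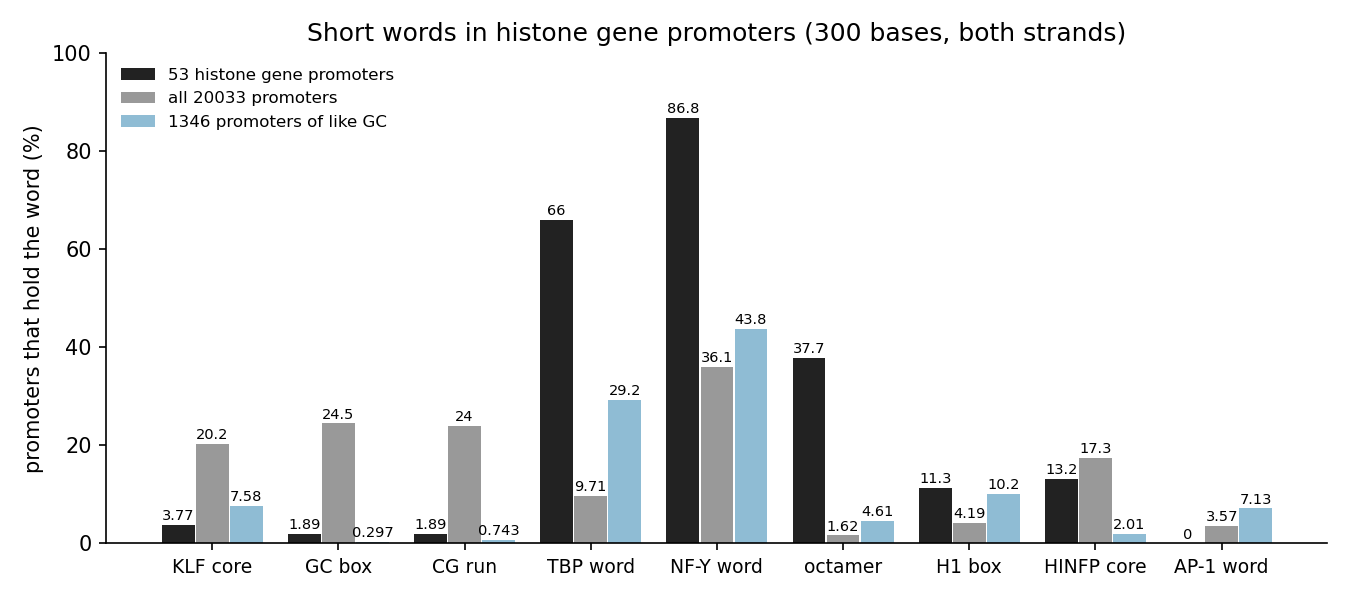
The bars give the percent of promoters that held each word for the 53 histone genes, all 20033 protein-coding genes and the 1346 genes with promoter GC content between the histone genes' quartiles; the NF-Y word is CCAAT and the TBP word TATAAA. The histone genes stood above both other groups for the TBP word (66.0%), the NF-Y word (86.8%) and the octamer (37.7%), and below all promoters for the KLF core (3.77%).

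KLF4 summits at these genes were listed in WT As3+ and Nrf2 KO control cells and in neither of the other conditions. In WT control cells 0 of the 53 genes had a summit within 2 kb, against 0.794% of all protein-coding genes. In WT As3+ cells 7 genes had one, or 13.2%, against 52.5% of all protein-coding genes. In Nrf2 KO control cells 27 genes had one, or 50.9%, against 67.5% of all. In Nrf2 KO As3+ cells 0 genes had one, against 0.195% of all. At the shares of all genes, the 53 would have held 0.421, 27.8, 35.8 and 0.103 genes with a summit in that order. The WT As3+ count thus lay well below the genome-wide share and the Nrf2 KO control count less far below it, while the zeros of the other lists are near what those short lists give. The nearest summit to any of the 53 TSS was 1264279 bp away in WT control cells and 2905927 bp away in Nrf2 KO As3+ cells.

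The lists differ in size and in what they could record. They hold 130 to 76545 peaks, with the fewest in Nrf2 KO As3+ and the most in Nrf2 KO control cells. The weakest listed peak rested on 10 fragments in WT control and in Nrf2 KO As3+ cells, on 5 in WT As3+ and on 4 in Nrf2 KO control cells. The lowest local background was 1.90 and 1.64 fragments in the lists of WT control and Nrf2 KO As3+ cells and 0.757 and 0.491 in those of WT As3+ and Nrf2 KO control cells. These values moved together with the counts of genes, and their part in them was not tested. The condition of each library is that of its label, which a list of peaks holds no means to check, and the directions between conditions rest on it.

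**Figure D2:**
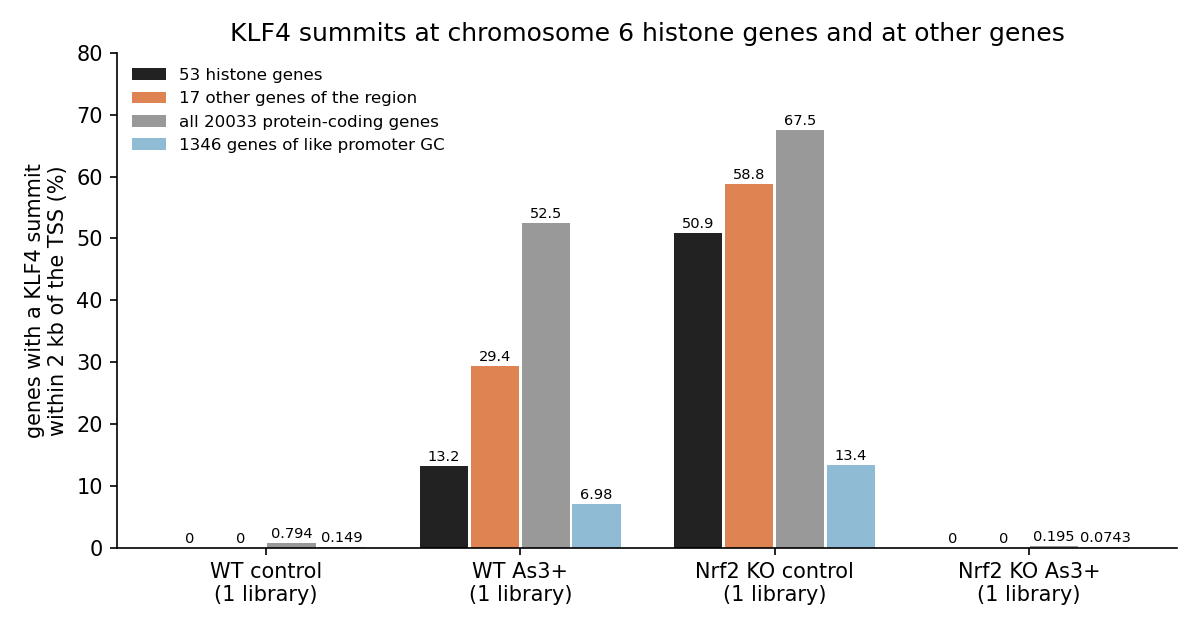
Percent of genes with a KLF4 summit within 2 kb of the TSS in the 4 libraries, 1 per condition, for the 53 histone genes, the 17 other protein-coding genes of the same region, all protein-coding genes, and genes of like promoter GC content. The histone genes are at 0, 13.2, 50.9 and 0%. In WT As3+ and Nrf2 KO control cells they lie below all protein-coding genes and above the genes of like promoter GC. In WT control and Nrf2 KO As3+ cells all protein-coding genes are at 0.794 and 0.195%, so the zeros are near that share.

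Among the linker histone genes, H1-4 alone had a summit, in both lists, and the other 5 had none. In WT As3+ cells the H1-4 peak at chr6:26156560-26156759 had its summit 345 bp after the TSS, in the coding exon, with a fold of 3.86 over the local background and 10 fragments. In Nrf2 KO control cells the peak at chr6:26156204-26156524 had its summit 29 bp after the TSS, in the 5′ untranslated part of the exon, with a fold of 5.67 and 16 fragments. The peaks are next to each other and share no base, and a second Nrf2 KO control peak lay 1550 bp upstream with a fold of 3.48. H2BC5, whose TSS is 1793 bp from that of H1-4, was counted through the same pair of peaks in the H1-4 gene.

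None of the 11 H2A genes had a summit in WT As3+ cells, and 7 had one in Nrf2 KO control cells. H2AC7 had the highest fold of these genes, 5.59 with 11 fragments, from a peak at chr6:26199004-26199226 whose summit was in its coding exon, 174 bp after the TSS. The protein-coding TSS nearest to that summit was of a gene outside the set. H2AC17 followed with 5.13 and 10 fragments, 782 bp after the TSS and past the end of the gene. H2AC13 was counted at 4.89 and 10 fragments from a peak that lay nearer to its partner H2BC13.

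Of the 14 H2B genes, 2 had a summit in WT As3+ and 8 in Nrf2 KO control cells. H2BC6 was counted only in WT As3+ cells, with a fold of 3.71 and 6 fragments, 1507 bp upstream of its TSS. H2BC7 and H2AC7 shared both of their peaks in Nrf2 KO control cells, and the second lay 291 bp after the TSS of H2BC7, in its coding exon, with a fold of 3.71 and 8 fragments. H2BC17 shared the peak of H2AC17, with a fold of 5.13. In divergent pairs, where the 2 genes see the same peaks, 12 of 18 genes (66.7%) had a summit in Nrf2 KO control and 0 of 18 in WT As3+ cells. The genes outside such pairs had 15 of 35 (42.9%) and 7 of 35 (20%). The shares were 67.5% and 52.5% of all protein-coding genes, and 81.5% and 68.2% of those with another such TSS within 2 kb. Partners share their peaks, so the genes of a pair are not separate counts, and the difference was not tested.

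Of the 10 H3 genes, 2 had a summit in WT As3+ and 6 in Nrf2 KO control cells. H3C11 was the gene with the clearest signal in WT As3+ cells and had 2 peaks there. One, at chr6:27871927-27872273, had its summit 175 bp after the TSS with a fold of 5.12 and 12 fragments, and the other lay past the gene, 971 bp after the TSS, with a fold of 5.15 and 11 fragments. In Nrf2 KO control cells H3C11 had a peak at chr6:27872125-27872342 with its summit 151 bp after the TSS, a fold of 4.89 and 10 fragments. H3C7 had a summit 1288 bp after its TSS in WT As3+ cells (fold 4.16, 8 fragments) and another at 1757 bp in Nrf2 KO control cells (fold 3.42, 5 fragments). H3C4, H3C12 and H3C8 were counted in Nrf2 KO control cells at folds of 5.59, 5.13 and 5.00. The first 2 of these shared their highest peak with H2AC7 and H2AC17, and H3C8 shared its own with H2BC10.

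Of the 12 H4 genes, 2 had a summit in WT As3+ and 5 in Nrf2 KO control cells. H4C13 had the highest fold of any member in either list, 6.70 with 11 fragments in Nrf2 KO control cells, from a peak at chr6:27875137-27875521 that lay 1795 bp upstream of the TSS. In WT As3+ cells it was counted through the peak in H3C11, its neighbour. H4C11 was counted only in WT As3+ cells, at a fold of 3.29 and 8 fragments, 287 bp upstream of the TSS. H4C6 and H4C4 had folds of 4.65 and 4.00 in Nrf2 KO control cells, 436 and 609 bp upstream.

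**Figure D3:**
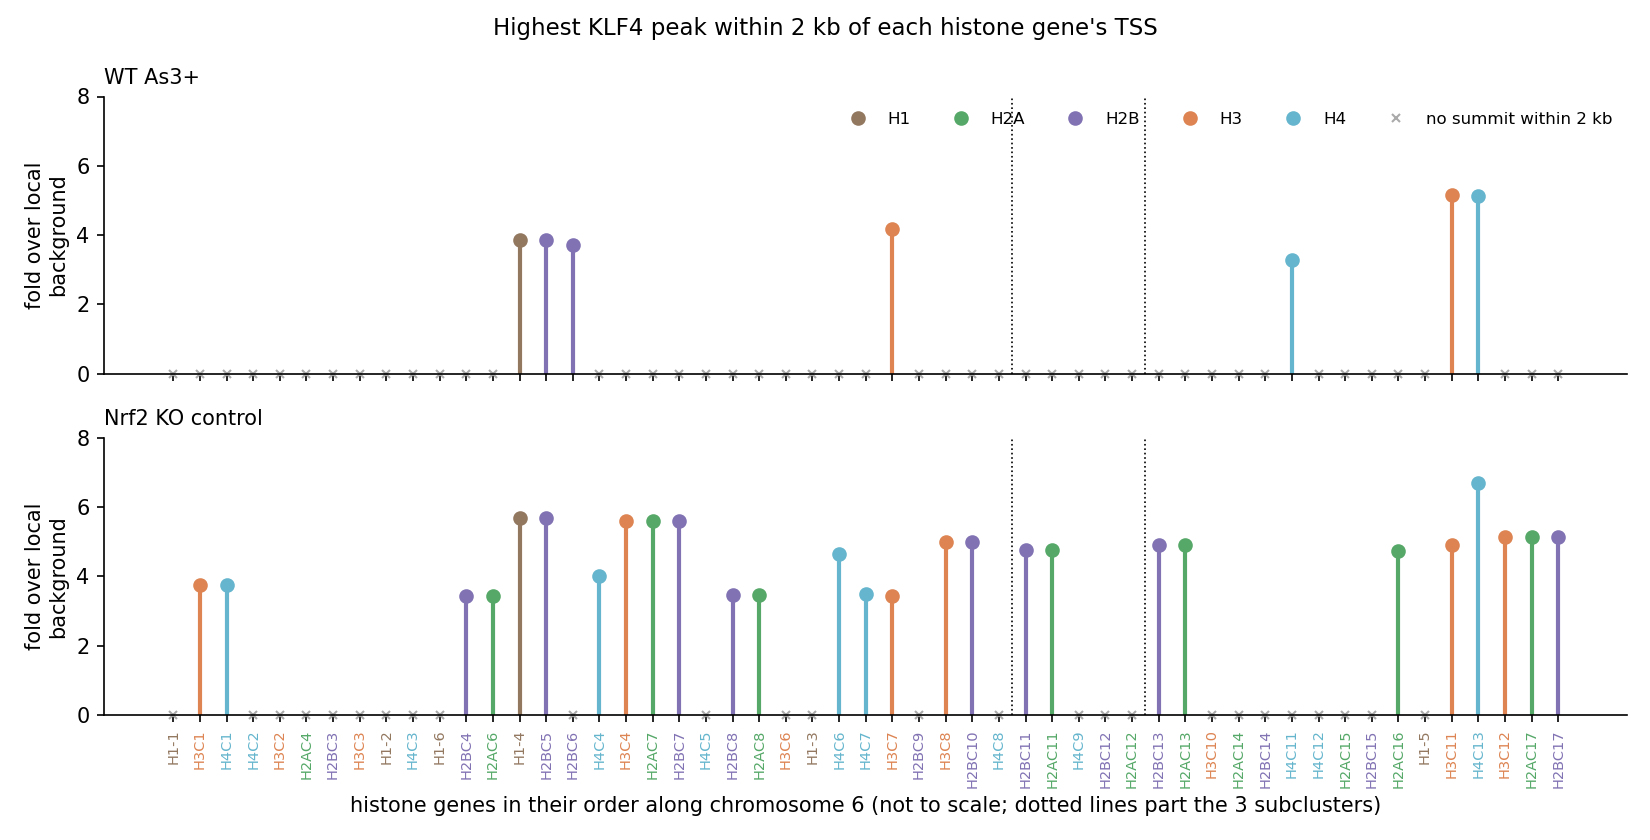
Fold over the local background of the highest KLF4 peak within 2 kb of each histone gene, with the 53 genes in chromosome order, coloured by histone type, and crosses where no summit was listed; folds are not compared between libraries. The WT As3+ panel holds 7 genes between 3.29 and 5.15 and the Nrf2 KO control panel 27 genes between 3.42 and 6.70, and neighbours of equal height share 1 peak.

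Counting each peak once left fewer events than genes. The 7 genes of WT As3+ cells rested on 6 peaks, of which 2 were within reach of 2 genes. The 27 genes of Nrf2 KO control cells rested on 20 peaks, of which 10 served 2 genes and 2 served 3 genes. By subcluster, 4, 0 and 3 genes had a summit in WT As3+ cells and 17, 2 and 8 in Nrf2 KO control cells.

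The peaks at these genes were lower than other promoter peaks in both lists, and in Nrf2 KO control cells they were near the middle of the whole list. In WT As3+ cells they held 6 to 12 fragments, with a median of 9 against 12 for all peaks within 2 kb of a protein-coding TSS, and their median rank by −log10 p was at percentile 21.4 of the list against 61.5. In Nrf2 KO control cells they held 5 to 16 fragments, with a median of 8 against 9, at percentile 50.2 against 69.5. Over the whole lists the median was 10 fragments in WT As3+ and 7 in Nrf2 KO control cells. A count of 6 fragments has an exact Poisson interval at 95% of 2.20 to 13.1, and one of 16 has 9.15 to 26. These intervals cover counting error only. The peaks were also narrow, with median widths of 204 and 239 bp against 358 and 363 bp.

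With a −log10 q of at least 5, no member was left in WT As3+ cells, against 28.6% of all protein-coding genes. In Nrf2 KO control cells 6 members were left, against 38.5% of all. They rested on 3 peaks, which are those described at H1-4, at H2AC7 and upstream of H4C13.

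WT As3+ and Nrf2 KO control cells had few members in common. Both lists held a summit at 5 genes (H1-4, H2BC5, H3C7, H3C11 and H4C13), or 9.43%, against 48.9% of all protein-coding genes. A summit in WT As3+ cells only was found at 2 genes (H2BC6 and H4C11), or 3.77%, against 3.62% of all. A summit in Nrf2 KO control cells only was found at 22 genes, or 41.5%, against 18.6% of all. The remaining 24 genes had none in either list, and their nearest summit lay 2267 to 17295 bp away with a median of 5890 bp. Of the members with a WT As3+ summit, 71.4% also had one in Nrf2 KO control cells, against 93.1% over all genes. Of the members with a Nrf2 KO control summit, 18.5% also had one in WT As3+ cells, against 72.4% over all genes. Genes with a Nrf2 KO control summit were 3.86 times those with a WT As3+ summit among the members, against 1.29 times over all genes. These unequal counts cap the last share and the share in both lists, and they raise the Nrf2 KO control only share. Those shares are thus largely set by the counts per list and are not separate signs of low sharing.

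Few peaks at the members overlapped between the lists, and only the peaks in H3C11 did. That is 1 of 6 WT As3+ peaks (16.7%) against 78.8% of all those within 2 kb of a protein-coding TSS. It is 1 of 20 Nrf2 KO control peaks (5.00%) against 50.5% of all such peaks in that list. These shares also count peaks at genes with no summit in the other list. Of the 5 genes with a summit in both lists, H3C11 and H4C13 were within reach of the overlapping pair. The minimum overlap was 1 bp.

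Most summits lay outside the histone genes themselves, which are short beside the 2 kb counted on either side of the TSS. The share expected inside from gene length alone was not worked out. In WT As3+ cells 2 of the 6 summits were inside the canonical transcript of a member gene, and in Nrf2 KO control cells 7 of the 20 were. All summits inside a gene were in the coding exon but for the H1-4 summit at 29 bp. The rest are called outside, although longer annotated transcripts, as of H2BC6, can reach over them. Within 500 bp on either side were 3 of 6 and 9 of 20 summits (50% and 45%), against 65.4% and 56.0% of all peaks within 2 kb of a protein-coding TSS. The median distance to the nearest member TSS was 658 and 578.5 bp, against 319 and 417 bp. Judged by each gene's nearest summit, the counted gene closest to the 2 kb limit was H2BC6 at 1507 bp in WT As3+ cells and H2AC8 at 1869 bp in Nrf2 KO control cells. The first genes beyond the limit, with no summit within 2 kb, were H2BC9 at 2267 bp and H2BC12 at 2580 bp.

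**Figure D4:**
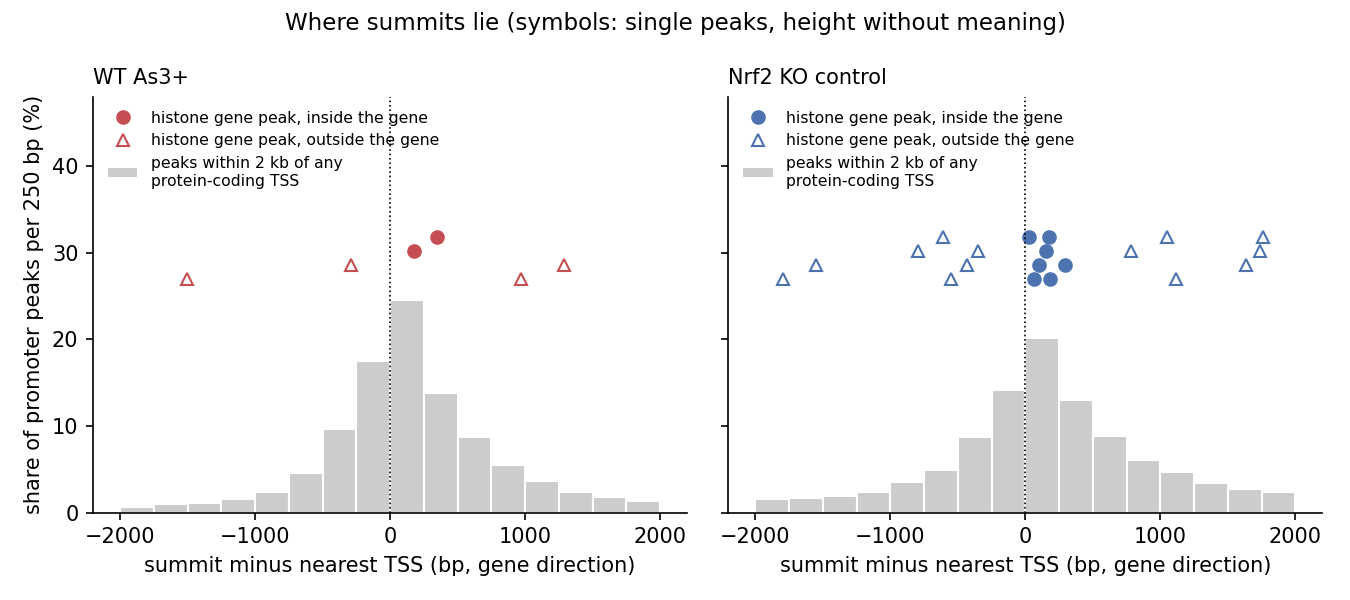
Distance from the summit to the TSS in the direction of the gene, where grey bars give the percent of all peaks within 2 kb of a protein-coding TSS per 250 bp and each symbol is 1 peak at a histone gene, filled when inside the gene. The 2 and 7 summits inside a gene lie between 29 and 345 bp after the TSS, and the rest are spread over the 2 kb on either side.

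The bases under the summits of 2 peaks inside H3 genes, 1 from each list, are printed as examples. Each run has the summit base in capitals and is on the strand of the gene.
H3C11, WT As3+ summit at 175 bp, chr6:27872157-27872186, minus strand: cccggcaccgtggccCtgcgcgagatccgc
H3C4, Nrf2 KO control summit at 180 bp, chr6:26197092-26197121, minus strand: cccggcacggtggctCtgcgcgagatccgc
The runs were equal at 28 of 30 bases and lie at about the same place of the H3 coding sequence. Runs of H3 genes without a summit were not compared, so this likeness cannot be tied to KLF4.

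The KLF core was found within 200 bp centred on the summit at 1 of 6 and 2 of 20 member peaks, against 17.3% and 17.1% of all peaks near a protein-coding TSS. The 3 matches were upstream of H2BC6 in WT As3+ cells and downstream of H2BC8 and upstream of H4C6 in Nrf2 KO control cells. No peak inside a histone gene had the KLF core in this window.

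Histone gene promoters are poor in G and C, and over the genome the share of genes with a summit rose with promoter GC content up to 75%. The members' promoters had a median GC content of 42.7%, from 36.3 to 58.0%, against 63.7% for all protein-coding genes. Genes with promoter GC content between the members' quartiles had a summit in 6.98% of cases in WT As3+ and 13.4% in Nrf2 KO control cells, so that the members' 13.2% and 50.9% lay above this group and below all genes. Of the 23 members at 40 to 45% GC, 2 had a summit in WT As3+ and 14 in Nrf2 KO control cells, against 6.13% and 10.2% of other genes in that range. Over 2 kb on either side of the TSS the difference was smaller, with a median GC content of 45.3% against 50.9%. Genes between the members' quartiles on this scale had a summit in 40.6% and 54.1% of cases, next to which the WT As3+ share of the members was low and the Nrf2 KO control share close. Genes between the members' quartiles for both promoter GC content and CpG ratio, the observed over the expected number of CG pairs, had 18.2% and 42.1%. The groups chosen by quartiles include the members that lie between those quartiles. The members' standing thus depended on the genes they were set beside.

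**Figure D5:**
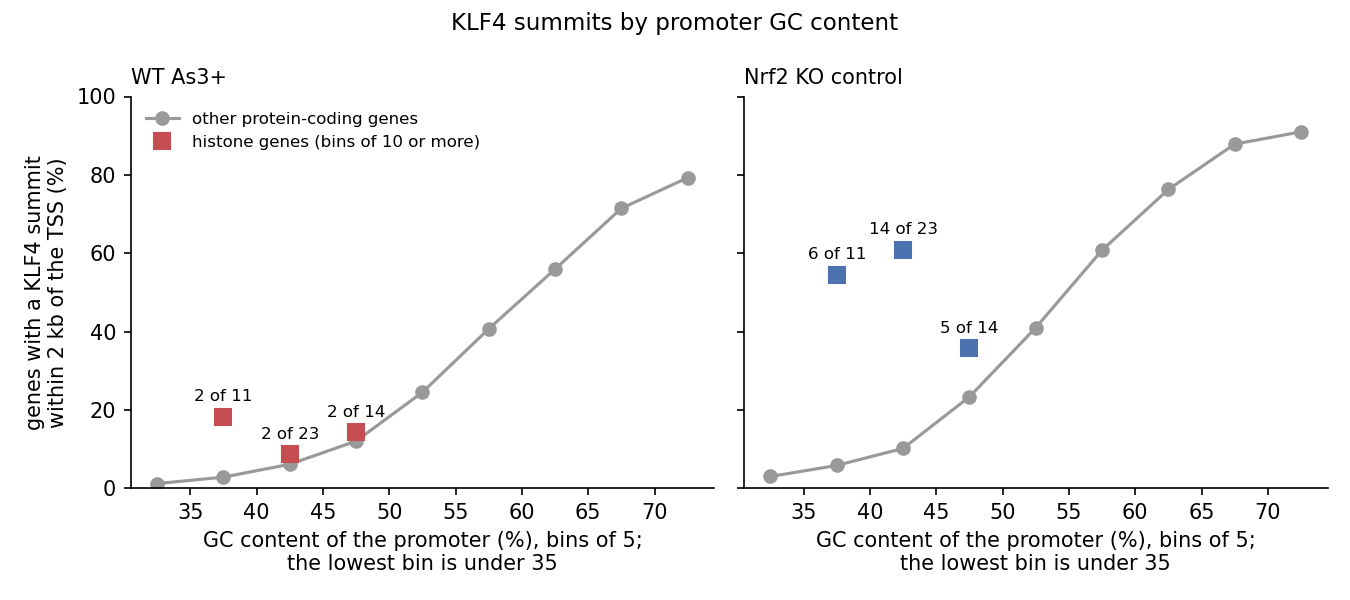
Percent of genes with a KLF4 summit by promoter GC content in bins of 5 percentage points, for other protein-coding genes (grey line; the bin of 75% and over is not drawn) and for the histone genes in the bins that hold at least 10 of them (squares with counts). In Nrf2 KO control cells the 3 squares, 6 of 11, 14 of 23 and 5 of 14, lie above the line, and in WT As3+ cells the squares are 2 of 11, 2 of 23 and 2 of 14.

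Some histone genes are near copies of each other, where short reads can be hard to place. Near the 53 TSS a median of 99.6% of all 75-base words, the length of the reads, occurred once in the genome, and the lowest value was 88.1% at H4C11. Members with a Nrf2 KO control summit had a median of 100% and those without one 99.1%. In WT As3+ cells the order was the other way, with 99.1% for members with a summit, H4C11 among them, and 99.8% for those without one. In the 17 replication histone genes outside the region the median was 46.2%.

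Related genes were counted in the same way, beside the same 52.5% and 67.5% of all genes. The 17 other protein-coding genes of the region had a summit in 5 cases (29.4%) in WT As3+ and 10 (58.8%) in Nrf2 KO control cells. The 17 replication histone genes elsewhere had 2 (11.8%) and 9 (52.9%). Their median uniqueness was only 46.2%. H4C14, H3C14, H3C15, H4C15 and H2BC12L had 0% and no summit in either list. These shares are thus no plain scale for the members. The 2 genes elsewhere with a summit in WT As3+ cells, H2AC25 and H2BC26, shared 1 peak of fold 5.95 and 21 fragments.

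The replication-independent histone genes, whose expression is not limited to S phase, had a summit in 8 of 12 cases (66.7%) in WT As3+ and 11 (91.7%) in Nrf2 KO control cells. H3-3A, which encodes the variant H3.3, had a fold of 7.37 with 15 fragments in WT As3+ cells, and H2AZ1, which encodes H2A.Z, had 6.39 with 14. Of 25 genes for histone gene transcription and mRNA end formation, 18 (72%) and 22 (88%) had a summit. CPSF3, the nuclease that cuts histone pre-mRNA, had a fold of 11.7 with 35 fragments in WT As3+ cells, and SLBP had 9.23 with 26. NPAT, HINFP and CSTF2 of this list had no summit in WT As3+ or Nrf2 KO control cells. Of 15 histone chaperone genes, 6 (40%) and 12 (80%) had a summit, led in WT As3+ cells by HIRA at 8.14 and ASF1B at 7.42. None of these genes had a summit in WT control or Nrf2 KO As3+ cells. The chaperones handle histone proteins. Their list holds 15 genes, so its shares rest on few genes and were not tested against the 52.5% and 67.5% of all genes. The promoters had a median GC content of 66.7% in the transcription and mRNA end list and 65.7% in the chaperone list.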

How the data were processed

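KLF4 ChIP-seq peak lists from 4 BEAS-2B libraries were used, 1 per condition. The input libraries and those for H3K4me1 and H3K27Ac are not analysed here. Per the labels of these samples, the 75-nt reads were aligned to GRCh38/hg38 with BWA, and the submitters' processing notes name bcl2fastq 2.17. The peak caller and its settings are not given in the sources used here. The deposited lists give for each peak a score, a fold (the ratio of the summit to its local background), a −log10 p-value and a −log10 q-value, and the lowest −log10 q was 1.00 to 1.03. There was 1 list per library.

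The fragments and the background at each summit were recovered by solving for the pair of values that gives both its fold, with 1 added to each, and its Poisson tail probability, and the recomputed −log10 p-value differed by no more than 0.000405. The median was 7 to 25 fragments per list, which is the depth behind a peak. Read totals were not used here. Genes and TSS came from GENCODE 44 and sequences from the hg38 genome. Uniqueness is the share of 75-base words starting within 2 kb of the TSS that occur once in the assembled chromosomes on either strand. The genes named are the 3 of each histone type with the highest fold in WT As3+ and Nrf2 KO control cells and the 2 highest of each comparison list in WT As3+ cells. Others are named for their sequences, as neighbours or from short counts, after their values were seen. The members and lists were chosen with earlier results of these data known. Some sequences are not reported here. The counting and recovery steps were tested on simulated data. Python 3.11.15, numpy 2.4.6, pandas 2.3.3, scipy 1.17.1, numba 0.67.0 and matplotlib 3.10.9 were used. Alternatives were other q and TSS settings, equal list sizes, other word windows and other background genes.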

Additional observations from a re-analysis of the deposited data

Results flagged for a closer look

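The number of the 53 histone genes with a KLF4 summit changed in opposite directions with As3+. It rose by 7 in WT cells, from 0 to 7, and the change was -27 in Nrf2 KO cells, from 27 to 0. The difference between the genotypes was not tested, since each condition has 1 library. The same turn was seen over all protein-coding genes, with 159 and 10526 genes in WT and 13531 and 39 in Nrf2 KO cells without and with As3+. The lists with As3+ in Nrf2 KO cells and without it in WT cells are short, with 130 and 751 peaks against 76545 and 29870, and these directions hold only as far as the library labels do, which could not be checked from peak lists.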

How the results depend on the processing

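No paired analysis was possible because each condition has 1 library and the counts come from no test, and for the same reason no replicate could be left out. With −log10 q of at least 5 the members with a summit were 0 in WT As3+ and 6 in Nrf2 KO control cells, from 0 and 3 peaks, with 0 in both lists, 0 in WT As3+ only, 6 in Nrf2 KO control only and 47 in neither. With −log10 q of at least 2, 1 member was in WT As3+ only. A window of 1 kb gave 3 and 15 members, 13 peaks in Nrf2 KO control cells, and 2 members in both, 1 in WT As3+ only, 13 in Nrf2 KO control only and 37 in neither. A window of 5 kb gave 8 in both and 14 in neither. With the starts of all transcripts, 1 member was in WT As3+ only. When a peak counted only for its nearest protein-coding TSS, Nrf2 KO control cells had 17 members, of which 3 were in both lists and 14 in Nrf2 KO control only. For these windows and TSS settings the share of all genes is not given, so the counts show only how the members' own numbers moved. Among the 130 strongest peaks of each list, 0 and 0 members had a summit. So few peaks reach few genes, as the 130 peaks of Nrf2 KO As3+ cells reached 0.195% of all protein-coding genes. These zeros thus say little about the members. The share of background genes was 0.149, 6.98, 13.4 and 0.0743% in WT control, WT As3+, Nrf2 KO control and Nrf2 KO As3+ cells for like promoter GC, and in WT As3+ and Nrf2 KO control cells 68.2 and 81.5% for genes with another TSS within 2 kb. Chosen after seeing the data, like GC over 2 kb gave 40.6 and 54.1%, and like promoter GC and CpG ratio 18.2 and 42.1%. Counting any overlap of the peak, or leaving out the testis-type gene H1-6, moved none of the counts by over 1.5 times; H2AC1 and H2BC1, planned with it, lie outside the region. The KLF core was at 0 of 6 and 0 of 20 member peaks in 100 bp around the summit and at 3 and 3 in 400 bp. A summit below a list's threshold cannot be seen, so a gene without one may still be bound.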
